A study of Mus musculus with 16 samples.

Results

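The proximal tubule is the first segment of the nephron and takes back most of what the glomerulus filters. Carriers on its brush border and basolateral membrane move sugars, organic acids, phosphate, amino acids, bicarbonate and water, enzymes on the brush border split filtered peptides, and endocytic receptors retrieve filtered proteins. The same cells make glucose and active vitamin D. A panel of 36 genes for these functions was taken as listed, by symbol, without a filter on their values. All 36 were matched among the 55359 gene identifiers of the count files, and all 36 passed the filter on low counts.

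RNA was sequenced from whole kidney and whole ovary of 21-day-old female CBAF1 mice with the WT genotype. The treated animals received 7.5 mg/kg PT-2385, an inhibitor of the hypoxia-inducible factor HIF-2α (the product of Epas1), in saline by intraperitoneal injection every 12 h for 4 days. The others received 5% DMSO in saline on the same schedule. The labels state no DMSO percentage for the PT-2385 injections, so whether the groups shared this solvent is not known. Animals of both groups also received 5 IU of the gonadotrophin PMSG for 48 h and then 5 IU of hCG for 13 h, so no group was without gonadotrophins. There were 4 libraries per treatment and organ. The labels do not state whether each library is from its own animal; p-values therefore reflect only the spread between libraries, which may be technical. In bulk RNA of a whole organ, fewer proximal tubule cells and less RNA per cell cannot be told apart.

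Kidney libraries held 23.0, 12.7, 43.3 and 26.6 M assigned read pairs with PT-2385 (1 M is 1000000) and 26.3, 26.95, 23.3 and 26.8 M with vehicle. Levels are CPM, assigned read pairs per 1000000 after TMM scaling, unless TPM, which also divides by gene length, is named. The 36 genes together took 3.39, 3.48, 3.36 and 3.26% of the pairs of the PT-2385 kidneys, against 3.68, 3.56, 3.74 and 3.63% in vehicle kidneys, so the groups did not overlap. Of 8 ovary markers, 4 had 0 counts in every kidney: Foxl2, Zp3, Cyp19a1 and Fshr. Without TMM scaling, the 8 together summed to 4.93 to 5.36 CPM with PT-2385 and 4.18 to 5.88 CPM with vehicle.

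Of the 36 genes, 14 were lower with PT-2385 and 1, Slc34a3, was higher (quasi-likelihood test of edgeR, Benjamini-Hochberg adjusted over all 17763 genes tested and called under 0.05). This is 38.9% of the panel on the lower side, against 3.70% of all genes tested, and 1.83% of all genes were called higher (5.53% in either direction). The falls were small, between 15.7% and 26.2% of the vehicle level, and the fallen genes had a median of 79.8% of vehicle. A further 17 of the 21 genes that were not called had a log2 fold change below 0. The median log2 fold change over the 36 genes was -0.25, against 0.01 over all genes tested.

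In 17 of the 36 genes all 4 PT-2385 kidneys lay below all 4 vehicle kidneys, where 7.89% of all genes did, and in 0 did they lie above, where 5.37% of all genes did. These 17 were 13 of the 14 that fell, together with Lrp2, Slc3a1, Mme and Slc17a3. At an unadjusted p of 0.05, 22 of the 36 passed (61.1%), against 4101 of all 17763 genes (23.1%). The count of fallen genes ranged from 10 without PT-2385 replicate 3 to 17 without vehicle replicate 3 or vehicle replicate 4. The 982 genes called over the whole table became 531, 240, 287 and 269 without PT-2385 replicates 1, 3 and 4 and vehicle replicate 2.

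**Figure D1:**
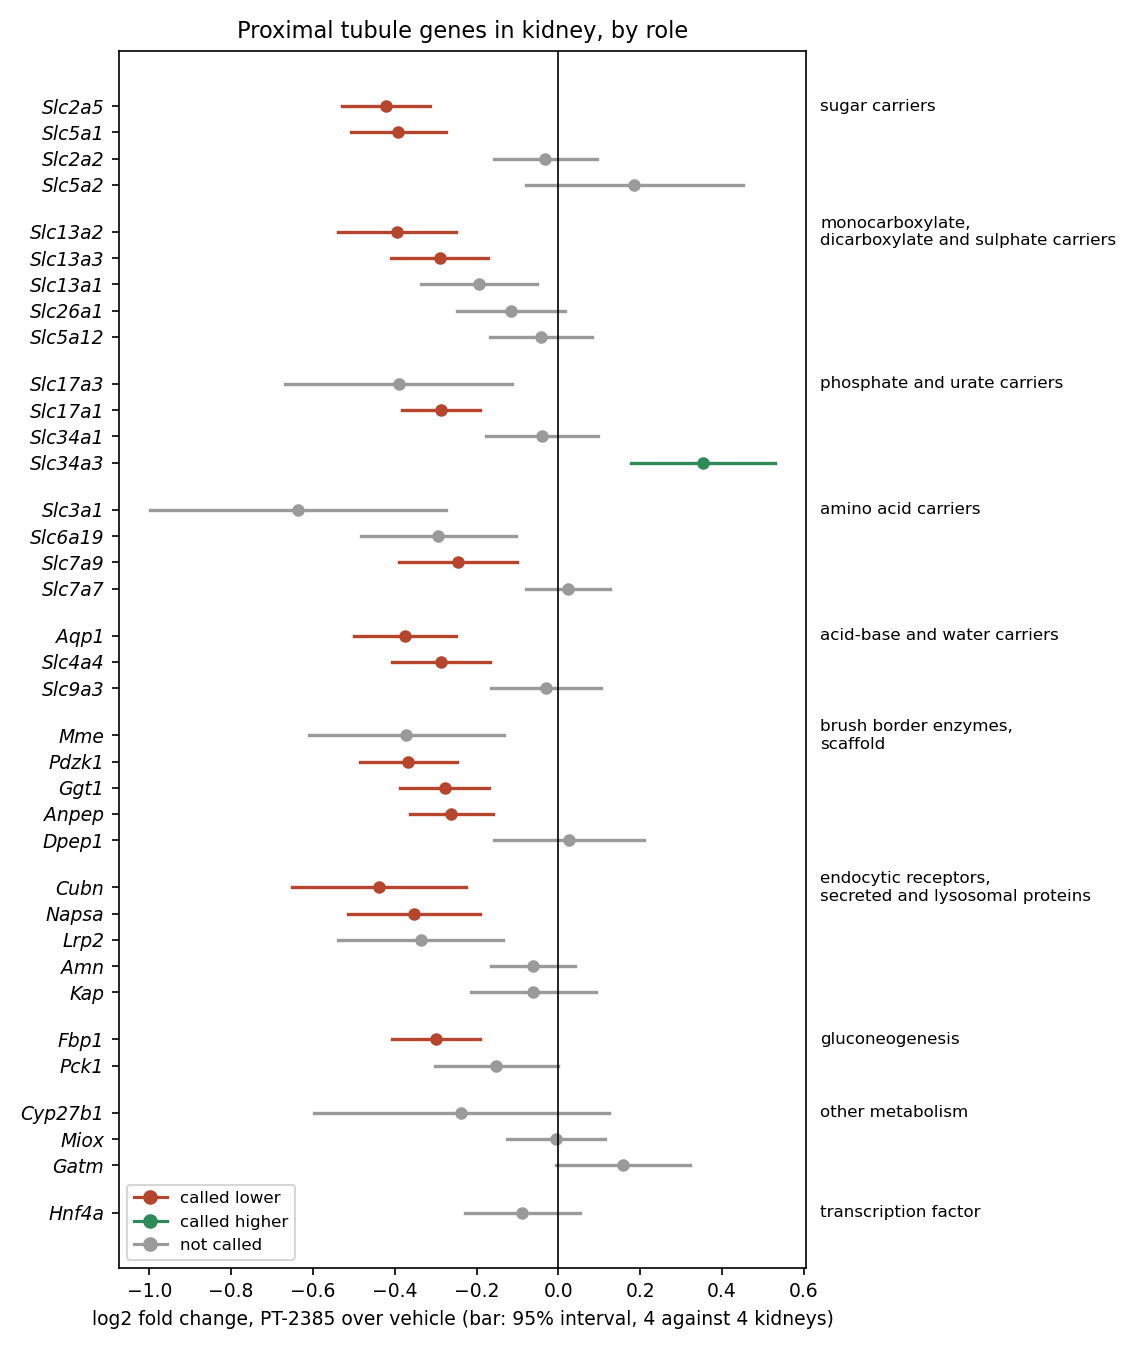
Log2 fold change in kidney, PT-2385 over vehicle, of each of the 36 genes, grouped by role, with its 95% confidence interval as a bar (4 against 4 kidneys). The 14 genes called lower lie between -0.44 and -0.25 and occur in 8 of the 10 groups, while Slc34a3 is the gene called higher.

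Among the 4 sugar carriers, 2 fell and 2 did not pass. Slc2a5, the fructose carrier GLUT5 (ENSMUSG00000028976, GRCm39 chromosome 4, 150203740 to 150228626), had 86.6, 97.6, 95.6 and 85.2 CPM in PT-2385 kidneys (replicates 1 to 4), against 121, 122, 124 and 123 CPM in vehicle kidneys. Its groups stood well apart, and the vehicle kidneys were tightly grouped. The mean was 91.2 ± 6.25 CPM with PT-2385 and 122 ± 1.29 CPM with vehicle (SD, n = 4 each), a log2 fold change of -0.42 (adjusted p = 0.00114 in edgeR, SE 0.0507). Slc5a1, the high-affinity sodium-glucose carrier SGLT1 of the late proximal tubule (ENSMUSG00000011034, GRCm39 chromosome 5, 33261563 to 33320214), had 85.1, 89.5, 85.1 and 82.4 CPM with PT-2385, against 122, 117, 105 and 105 CPM with vehicle. Every PT-2385 kidney was below every vehicle kidney (log2 fold change -0.39, adjusted p = 0.00234 in edgeR, SE 0.0551).

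The carriers that work beside these gave another picture. Slc5a2, the high-capacity sodium-glucose carrier SGLT2 of the early proximal tubule, had 266, 332, 358 and 372 CPM in PT-2385 kidneys, against 264, 265, 334 and 305 CPM in vehicle kidneys, and the groups overlapped. Its log2 fold change was 0.19 (95% interval -0.08 to 0.45, adjusted p = 0.385, edgeR), and 26.2% of its exon bases are shared with BC017158 on the other strand, whose reads could not be separated. Slc2a2, the basolateral glucose exit carrier GLUT2, had 145, 151, 160 and 158 CPM with PT-2385, against 140, 156, 174 and 159 CPM with vehicle. The groups overlapped here too (log2 fold change -0.03, 95% interval -0.16 to 0.09, adjusted p = 0.792, edgeR).

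Within each library, the ratio of Slc5a1 to Slc5a2 in TPM was 0.178, 0.15, 0.132 and 0.123 with PT-2385, against 0.256, 0.244, 0.174 and 0.192 with vehicle. The groups met at their edges, PT-2385 replicate 1 lying just above vehicle replicate 3. For Slc2a5 over Slc2a2 the ratio was 1.052, 1.14, 1.06 and 0.951 with PT-2385, against 1.52, 1.38, 1.25 and 1.36 with vehicle, and the groups did not overlap. These pairs were chosen after the values had been seen, so the ratios are given without a test.

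**Figure D2:**
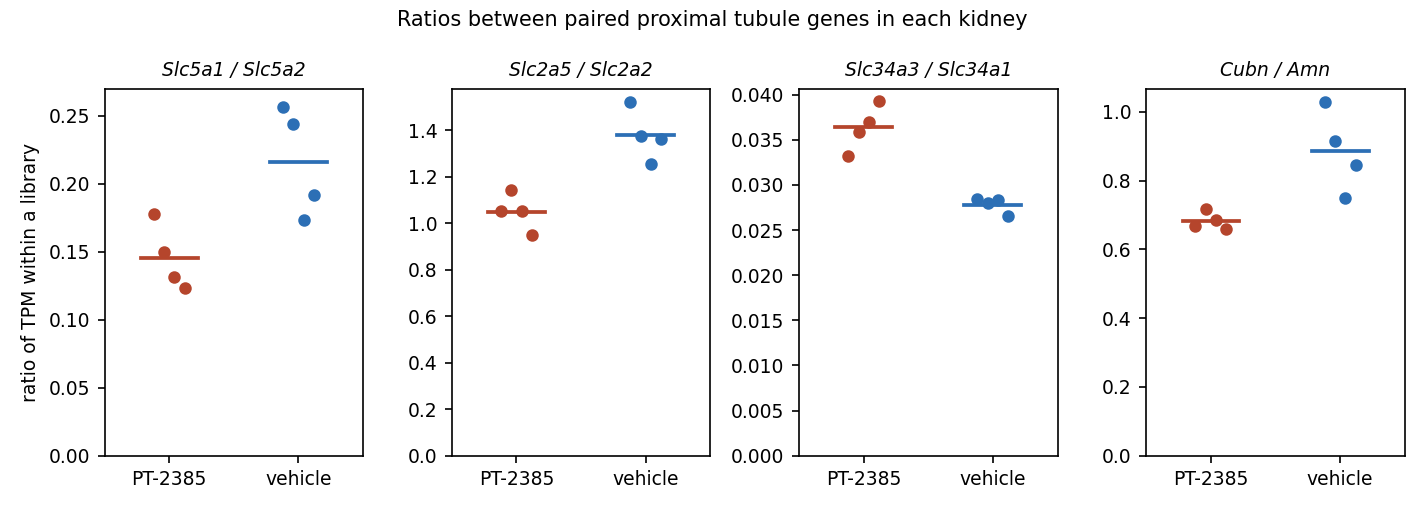
Ratio of the TPM of one gene to that of a partner within each kidney library, for Slc5a1 over Slc5a2, Slc2a5 over Slc2a2, Slc34a3 over Slc34a1 and Cubn over Amn. Points are libraries in replicate order, bars are group means, and each axis starts at 0; Slc34a3 over Slc34a1 is the pair with the higher ratio in PT-2385 kidneys.

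Of the 5 carriers of organic acids and sulphate, the dicarboxylate carriers fell and the others did not pass. Slc13a2, the brush border carrier NaDC1 for citrate and succinate, had 51.9, 58.5, 67.5 and 59.5 CPM with PT-2385, against 74.7, 80.8, 75.5 and 82.0 CPM with vehicle. Its groups did not overlap (log2 fold change -0.39, adjusted p = 0.00508 in edgeR, SE 0.0674), though 26.2% of its exon bases are shared with the antisense gene Slc13a2os. Slc13a3, the basolateral dicarboxylate carrier NaDC3, had 460, 514, 518 and 509 CPM with PT-2385, against 552, 641, 638 and 617 CPM with vehicle. Replicate 1 was the lowest of its group on both sides and the groups stayed apart (log2 fold change -0.29, adjusted p = 0.0103 in edgeR, SE 0.0564).

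Slc5a12, the low-affinity lactate carrier, had 295, 358, 307 and 289 CPM with PT-2385, against 321, 323, 322 and 320 CPM with vehicle. Its vehicle kidneys lay inside the range of the PT-2385 kidneys (log2 fold change -0.04, 95% interval -0.17 to 0.08, adjusted p = 0.709, edgeR). The sulphate carriers Slc13a1 of the brush border and Slc26a1 of the basolateral membrane had log2 fold changes of -0.19 and -0.12 (adjusted p = 0.0949 and 0.286, edgeR), and Slc13a1 passed without PT-2385 replicate 2 (adjusted p = 0.0254).

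The phosphate and urate carriers went in both directions. Slc34a3, the sodium-phosphate carrier NaPi-IIc (ENSMUSG00000006469, GRCm39 chromosome 2, 25118910 to 25124376), was the panel's only gene called higher and is given per library for that reason. It had 59.1, 72.5, 76.6 and 78.1 CPM with PT-2385, against 51.0, 56.4, 61.3 and 55.9 CPM with vehicle. PT-2385 replicate 1 lay below vehicle replicate 3, so the groups overlapped, while the other 3 PT-2385 kidneys were above all vehicle kidneys. The mean was 71.6 ± 8.68 CPM with PT-2385 and 56.1 ± 4.24 CPM with vehicle (SD, n = 4 each), 127.7% of the vehicle level (log2 fold change 0.35, adjusted p = 0.0273 in edgeR, SE 0.082). This call was lost without any 1 of PT-2385 replicates 2, 3 and 4 (adjusted p = 0.0505, 0.0933 and 0.0878, edgeR) and without vehicle replicate 1, 2 or 4 (adjusted p = 0.0690, 0.0798 and 0.0533, edgeR), with log2 fold changes between 0.31 and 0.36.

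Slc34a1, the main brush border phosphate carrier NaPi-IIa, had 3276, 3726, 3818 and 3662 CPM with PT-2385, against 3306, 3712, 3992 and 3887 CPM with vehicle. The groups overlapped almost fully (log2 fold change -0.04, 95% interval -0.18 to 0.10, adjusted p = 0.754, edgeR), and 13.5% of the exon bases are shared with Pfn3. Per length, Slc34a3 was the far less abundant of the pair, with ratios of TPM to Slc34a1 of 0.0333, 0.0359, 0.0370 and 0.0393 in PT-2385 kidneys, against 0.0284, 0.0280, 0.0283 and 0.0265 in vehicle kidneys, and those ratios did not overlap between groups.

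Slc17a1, the urate and organic anion carrier NPT1, had 249, 266, 256 and 249 CPM with PT-2385, against 317, 322, 303 and 302 CPM with vehicle. Its groups were apart (log2 fold change -0.29, adjusted p = 0.00415 in edgeR, SE 0.0448). The nearby gene Slc17a3, which encodes the urate carrier NPT4, was also apart, at 280 to 337 CPM with PT-2385 and 342 to 490 CPM with vehicle, but did not pass (log2 fold change -0.39, 95% interval -0.67 to -0.11, adjusted p = 0.0991, edgeR).

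The amino acid carriers held the largest log2 fold change of the panel, in a gene that did not pass the test. Slc3a1, which encodes rBAT, the heavy subunit of the cystine carrier (ENSMUSG00000024131, GRCm39 chromosome 17, 85335804 to 85371664), is given per library because its difference was the largest of the panel. It had 203, 231, 209 and 220 CPM in PT-2385 kidneys, against 430, 360, 274 and 276 CPM in vehicle kidneys. The PT-2385 kidneys were close together and all below the vehicle kidneys, which were spread widely, with replicates 1 and 2 high. The PT-2385 mean was 64.3% of the vehicle level and the log2 fold change -0.64 (95% interval -1.0 to -0.28), and the test was not passed (adjusted p = 0.0609, edgeR). It was passed without vehicle replicate 1, 3 or 4 (adjusted p = 0.0253, 0.0382 and 0.0375, edgeR), and 26.5% of the exon bases of Slc3a1 are shared with Prepl on the other strand.

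Its partner Slc7a9, the light subunit of that carrier, fell, with 99.0 to 130 CPM with PT-2385, against 128 to 143 CPM with vehicle, with PT-2385 replicate 2 just above the lowest vehicle kidneys (log2 fold change -0.25, adjusted p = 0.0473 in edgeR, SE 0.0678). That call was lost without PT-2385 replicate 1, 3 or 4 or vehicle replicate 1 or 2 (adjusted p = 0.0972, 0.140, 0.135, 0.101 and 0.148, edgeR). Slc6a19, the neutral amino acid carrier of the brush border, had 243, 297, 268 and 215 CPM with PT-2385, against 288, 306, 333 and 325 CPM with vehicle. PT-2385 replicate 2 overlapped the vehicle kidneys (log2 fold change -0.29, adjusted p = 0.0703, edgeR), and without it the gene passed (adjusted p = 0.0121). Slc7a7, a basolateral carrier of cationic amino acids, had a log2 fold change of 0.02 (95% interval -0.08 to 0.13, adjusted p = 0.811, edgeR).

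Water and bicarbonate carriers fell, and the sodium-proton exchanger did not pass. Aqp1, the water channel of the proximal tubule and the thin descending limb, had 707, 744, 713 and 717 CPM with PT-2385, against 1015, 999, 856 and 863 CPM with vehicle. All PT-2385 kidneys were close together and below the vehicle kidneys (log2 fold change -0.37, adjusted p = 0.00416 in edgeR, SE 0.0587). Slc4a4, the basolateral sodium-bicarbonate carrier NBCe1, had 626, 743, 653 and 651 CPM with PT-2385, against 858, 832, 782 and 786 CPM with vehicle. It was apart as well (log2 fold change -0.29, adjusted p = 0.0106 in edgeR, SE 0.0566) and just missed the threshold without PT-2385 replicate 3 (adjusted p = 0.0514, edgeR). Slc9a3, the brush border exchanger NHE3, had 168, 159, 173 and 175 CPM with PT-2385, against 198, 166, 169 and 156 CPM with vehicle, and the groups overlapped (log2 fold change -0.03, 95% interval -0.16 to 0.10, adjusted p = 0.820, edgeR).

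Of the 5 brush border enzyme and scaffold genes, 3 fell. Pdzk1, the scaffold that holds several apical carriers at the brush border, had 428, 476, 468 and 495 CPM with PT-2385, against 631, 623, 602 and 551 CPM with vehicle. Its groups were apart (log2 fold change -0.37, adjusted p = 0.00406 in edgeR, SE 0.0559). However, 47.6% of its exon bases are shared with 4930442L01Rik and Gpr89 on the other strand. Reads from those bases may be missing from its count or wrongly added to it. Ggt1, the enzyme that starts the breakdown of glutathione at the brush border, had 689, 688, 651 and 638 CPM with PT-2385, against 867, 824, 778 and 762 CPM with vehicle. Anpep, aminopeptidase N, had 344, 333, 340 and 311 CPM with PT-2385, against 403, 391, 416 and 382 CPM with vehicle. Both enzymes were apart between groups, with log2 fold changes of -0.28 for Ggt1 (adjusted p = 0.00794 in edgeR, SE 0.0516) and -0.26 for Anpep (adjusted p = 0.00775 in edgeR, SE 0.0481).

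Mme, the peptidase neprilysin, was apart at 180 to 199 CPM with PT-2385 and 208 to 292 CPM with vehicle, and its log2 fold change of -0.37 did not pass (95% interval -0.61 to -0.13, adjusted p = 0.0742, edgeR). It passed without vehicle replicate 3 or 4 (adjusted p = 0.0276 and 0.0328, edgeR). Dpep1, a membrane dipeptidase, overlapped at 137 to 170 CPM with PT-2385 and 134 to 171 CPM with vehicle (log2 fold change 0.03, adjusted p = 0.891, edgeR).

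For the endocytic receptors Cubn and Lrp2, every PT-2385 kidney lay below every vehicle kidney, and Cubn passed the test. Cubn, cubilin (ENSMUSG00000026726, GRCm39 chromosome 2, 13281149 to 13496624), had 400, 475, 440 and 424 CPM with PT-2385, against 704, 611, 511 and 531 CPM with vehicle. It fell to 73.8% of the vehicle level (log2 fold change -0.44, adjusted p = 0.0288 in edgeR, SE 0.0958), and the call was lost without PT-2385 replicate 1, 3 or 4 or vehicle replicate 2 (adjusted p = 0.0697, 0.0835, 0.0952 and 0.101, edgeR). Lrp2, megalin, the receptor that works with cubilin, had 1690, 1960, 1817 and 1873 CPM with PT-2385, against 2705, 2516, 2027 and 2021 CPM with vehicle. Its groups were also apart, but it did not pass (log2 fold change -0.34, 95% interval -0.54 to -0.14, adjusted p = 0.0554, edgeR); without vehicle replicate 3 or 4 it did (adjusted p = 0.0263 and 0.0192). Amn, amnionless, which anchors cubilin in the membrane, overlapped between groups, with 96.3 ± 4.0 CPM with PT-2385 and 100.5 ± 3.95 CPM with vehicle (log2 fold change -0.06, 95% interval -0.16 to 0.04, adjusted p = 0.469, edgeR). The ratio of Cubn to Amn in TPM was 0.667, 0.718, 0.685 and 0.658 with PT-2385, against 1.03, 0.915, 0.749 and 0.846 with vehicle.

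Napsa, an aspartic protease of lysosomes, had 1319, 1499, 1434 and 1429 CPM with PT-2385, against 2129, 1840, 1653 and 1628 CPM with vehicle. The groups were apart (log2 fold change -0.35, adjusted p = 0.0176 in edgeR, SE 0.0755), and the call was lost without PT-2385 replicate 1, 3 or 4 or vehicle replicate 2 (adjusted p = 0.0517, 0.0602, 0.0594 and 0.0670, edgeR). Gm15396 on the other strand shares 16.7% of the exon bases of Napsa. Kap, the androgen-regulated protein that proximal tubule cells secrete, was by far the most abundant of the panel per length, at 37330 TPM with PT-2385 and 39410 TPM with vehicle. In CPM it had 13890, 12670, 11560 and 11250 with PT-2385, against 12800, 11640, 14080 and 12990 with vehicle, and the groups overlapped (log2 fold change -0.06, adjusted p = 0.661, edgeR).

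Of the 2 gluconeogenesis enzymes in the panel, 1 fell and 1 did not pass. Fbp1, fructose bisphosphatase (ENSMUSG00000069805, GRCm39 chromosome 13, 63012567 to 63036096), had 646, 729, 659 and 630 CPM with PT-2385, against 828, 809, 813 and 828 CPM with vehicle. Its groups were apart (log2 fold change -0.30, adjusted p = 0.00486 in edgeR, SE 0.0504). Pck1, which makes phosphoenolpyruvate, had 2507, 2784, 2840 and 2869 CPM with PT-2385, against 2641, 2958, 3240 and 3381 CPM with vehicle. Replicate 1 was the lowest of each group and the groups overlapped (log2 fold change -0.15, adjusted p = 0.212, edgeR), and Pck1 passed without vehicle replicate 1 (log2 fold change -0.22, adjusted p = 0.0451, edgeR).

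None of the other metabolic enzymes passed. Cyp27b1, which makes active vitamin D and was the least abundant of the panel per length, had 13.5, 16.6, 17.6 and 14.9 CPM with PT-2385, against 14.3, 15.7, 23.6 and 20.5 CPM with vehicle. The groups overlapped and the interval was wide (log2 fold change -0.24, 95% interval -0.60 to 0.12, adjusted p = 0.420, edgeR). Gatm, which starts creatine synthesis, had a log2 fold change of 0.16 (95% interval -0.0053 to 0.32, adjusted p = 0.232, edgeR). Miox, which opens the inositol ring, had one of -0.0056 (95% interval -0.12 to 0.11, adjusted p = 0.966, edgeR).

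Hnf4a, a transcription factor that proximal tubule cells need to mature, had 588, 615, 648 and 628 CPM with PT-2385, against 762, 622, 659 and 594 CPM with vehicle. Vehicle replicate 1 was the highest of all and the groups otherwise overlapped (log2 fold change -0.09, 95% interval -0.23 to 0.05, adjusted p = 0.453, edgeR).

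**Figure D3:**
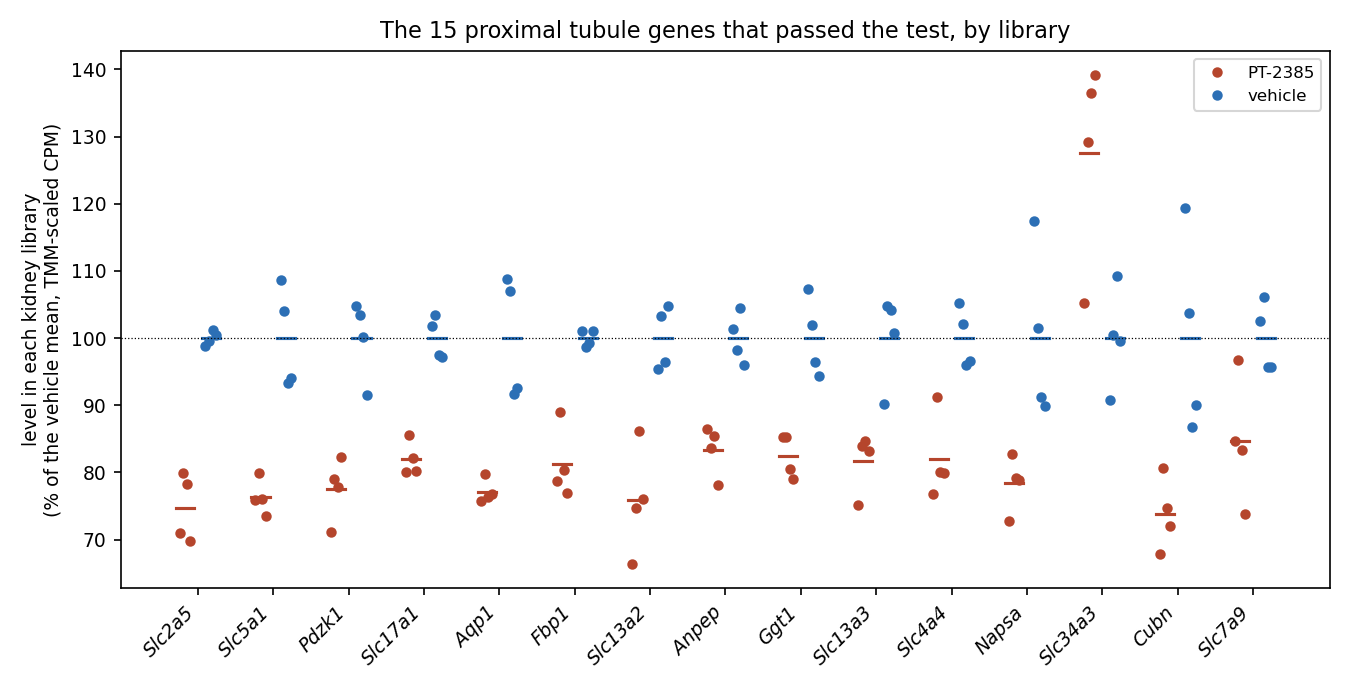
Level in each kidney library, as a percentage of the mean vehicle level of the same gene, for the 15 genes called, ordered by p; points are libraries in replicate order and bars are group means. The PT-2385 means of the 14 fallen genes lie between 73.8 and 84.4%, and that of Slc34a3 lies at 127.7%.

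The shift was shared by the PT-2385 kidneys to different degrees. The median over the 36 genes of the log2 difference from the mean vehicle level was -0.26, -0.13, -0.22 and -0.29 in PT-2385 replicates 1 to 4, against 0.02, 0.01, 0.00 and -0.02 in vehicle replicates 1 to 4. The vehicle values lie near 0 by construction, because that mean is taken over the same 4 vehicle libraries. PT-2385 replicate 1 had the lowest level of its group in 22 of the 36 genes, and PT-2385 replicate 2, the shallowest library, the highest in 18. PT-2385 replicate 3, the deepest library, carries another code in its name than the other kidney libraries. The labels do not say what the code stands for.

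Vehicle kidneys 1 and 2 differed from vehicle kidneys 3 and 4 in both directions, with the higher mean in 19 of the 36 genes and the lower mean in 17. The ratio of their means was highest at 1.44 for Slc3a1, 1.33 for Mme, 1.32 for Slc17a3, 1.29 for Lrp2, 1.26 for Cubn, 1.21 for Napsa and 1.17 for Aqp1. It was lowest at 0.680 for Cyp27b1, 0.828 for Slc5a2, 0.837 for Gatm and Dpep1 and 0.846 for Pck1. Each of these 7 genes with the highest ratios is among those whose PT-2385 kidneys all lay below all vehicle kidneys. Their PT-2385 kidneys therefore also lay below vehicle kidneys 3 and 4, which is no further check. Without vehicle kidneys 1 and 2, a choice made after the values had been seen, 14 of the 36 genes again fell, 11 of them shared with the full comparison, and the median log2 fold change was -0.19. Napsa, Slc4a4 and Slc7a9 were lost (adjusted p = 0.0556, 0.0548 and 0.351, edgeR), as was Slc34a3 (adjusted p = 0.281), while Slc3a1, Cyp27b1 and Pck1 passed with log2 fold changes of -0.35, -0.49 and -0.27 (adjusted p = 0.00301, 0.0242 and 0.0263, edgeR).

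Other genes of the proximal tubule, in 4 further lists of 90 genes in all, gave 20 lower and 0 higher, with a median log2 fold change of -0.13 and 75 of 90 below 0. Fallen genes made up 22.2% of these lists. Without PT-2385 replicate 1, 3 or 4 or vehicle replicate 2, the 20 became 13, 9, 9 and 10, and 1 gene was higher without PT-2385 replicate 1 or vehicle replicate 1. Among 28 other carriers 9 fell, led by Slc5a10, a mannose and fructose carrier that shares 17.4% of its exon bases with Fam83g and Grap, with a log2 fold change of -0.38 (adjusted p = 0.00467, edgeR). Slc5a8, a sodium-coupled monocarboxylate carrier, averaged 115 ± 12.7 CPM with PT-2385 and 170 ± 16.1 CPM with vehicle (SD, n = 4 each; log2 fold change -0.57, adjusted p = 0.00471, edgeR). Slc20a2, a phosphate carrier, had a log2 fold change of -0.40 and Slc38a3, a glutamine carrier, one of -0.44 (adjusted p = 0.00471 and 0.00513, edgeR). Slc27a2, a fatty acid carrier and ligase, had one of -0.37 (adjusted p = 0.0126, edgeR). For Slc6a20b, which shares 28.5% of its exon bases with Sacm1l, it was -0.25 (adjusted p = 0.0110, edgeR). Of these 6 carriers, Slc27a2 lost its call without PT-2385 replicate 3 or 4 or vehicle replicate 2 (adjusted p between 0.0518 and 0.0563, edgeR), and the others kept theirs with any 1 kidney left out.

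Among 20 other brush border and endocytic genes 4 fell, among them Treh (trehalase, log2 fold change -0.38), Mep1a (a meprin subunit, -0.44) and Clcn5 (the endosomal chloride-proton exchanger, -0.19), with adjusted p = 0.00867, 0.0218 and 0.0438 (edgeR). Among 13 other genes of gluconeogenesis and fructose metabolism 3 fell, among them Pcx (pyruvate carboxylase, log2 fold change -0.26) and Glud1 (glutamate dehydrogenase, -0.22), with adjusted p = 0.0112 and 0.0339 (edgeR). Among 29 other metabolic genes 4 fell, among them Acy1, which splits acetylated amino acids (log2 fold change -0.32), Acsm2 (-0.23) and Hao2 (-0.22), with adjusted p = 0.00649, 0.0211 and 0.0366 (edgeR). Of 14 tested genes that set mineral balance, 2 fell, Slc20a2 again and Pth1r, the receptor for parathyroid hormone (log2 fold change -0.19, adjusted p = 0.0219, edgeR).

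Treh and Acy1 kept their calls with any 1 kidney left out, and Pcx lost its call without PT-2385 replicate 3 (adjusted p = 0.0551, edgeR). Mep1a and Pth1r lost theirs without PT-2385 replicate 1, 3 or 4 or vehicle replicate 2 (adjusted p between 0.0571 and 0.0767 for Mep1a and between 0.0553 and 0.0892 for Pth1r, edgeR), and Acsm2 without PT-2385 replicate 3 or 4 (0.0907 and 0.0732). Clcn5 and Hao2 lost theirs without PT-2385 replicate 1, 3 or 4 or vehicle replicate 1 or 2 (adjusted p up to 0.161 and 0.141, edgeR). Glud1 kept its call only without vehicle replicate 1 or 3, with adjusted p between 0.0516 and 0.108 in the other 6 omissions (edgeR).

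Markers of other cell types were examined beside these genes. Their summed levels are CPM over all assigned pairs without TMM scaling. Of 6 podocyte markers 2 rose, Wt1 and Synpo, with a summed level of 749 to 871 CPM with PT-2385 and 612 to 743 CPM with vehicle. Of 6 distal tubule markers 1 rose, Pvalb, with sums of 2703 to 2848 CPM with PT-2385 and 2333 to 2672 CPM with vehicle. Of 6 thick limb markers 0 passed in either direction, with sums of 3274 to 3868 CPM with PT-2385 and 3535 to 4389 CPM with vehicle. Of 9 tested collecting duct markers 1 fell, Aqp4 (923 to 1023 CPM in sum with PT-2385, 861 to 1027 with vehicle). The log2 fold change was below 0 in 0 of the 6 podocyte markers and 1 of the 6 distal tubule markers. It was below 0 in 3 of the 6 thick limb markers and 2 of the 9 collecting duct markers.

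Outside the tubule, 0 of 8 endothelial markers passed (733 to 827 CPM in sum with PT-2385, 682 to 743 with vehicle). Of 8 macrophage markers 1 fell, Csf1r (106 to 121 CPM in sum with PT-2385, 122 to 134 with vehicle). The log2 fold change was below 0 in 0 of the 8 endothelial markers and in 7 of the 8 macrophage markers. The summed levels of 4 further lists overlapped between groups, and none of their tested markers passed. Fibroblast markers summed to 847 to 1029 CPM with PT-2385 and 862 to 1074 CPM with vehicle, and adrenal markers to 6.66 to 9.54 CPM with PT-2385 and 6.64 to 12.3 CPM with vehicle. Adipocyte markers summed to 46.0 to 203 CPM with PT-2385 and 44.5 to 99.3 CPM with vehicle, and red cell markers to 583 to 729 CPM with PT-2385 and 400 to 756 CPM with vehicle. Tubule injury markers summed to 1809 to 1990 CPM with PT-2385 and 1703 to 1833 CPM with vehicle, and 1 of 12 rose, Clu. Log2 fold changes were below 0 in 3 of 7 fibroblast markers, 0 of 6 adipocyte markers and 3 of 6 red cell markers. They were below 0 in the 1 adrenal marker tested and in 3 of the 12 injury markers. Over all lists of 90 markers, 2 were called lower and 4 higher in the main comparison, where 3.70% and 1.83% of all genes tested were. Without a filter on low counts 4 and 15 were, against 1049 and 712 of all 33810 genes. In DESeq2 they numbered 4 and 10, against 949 and 519 of 17763 genes. In the fit of all 16 libraries they numbered 0 and 0, against 237 and 49 of 19977 genes. With 1 kidney left out, Synpo lost its call in 4 omissions (PT-2385 replicate 2, 3 or 4 or vehicle replicate 3, adjusted p up to 0.127), and Pvalb and Clu in 5 each (PT-2385 replicate 1, 3 or 4 or vehicle replicate 1 or 2, adjusted p up to 0.112 and 0.122, edgeR). Wt1 lost its call without PT-2385 replicate 3 or 4 or vehicle replicate 2, Csf1r without PT-2385 replicate 2 or 4 or vehicle replicate 2, and Aqp4 without PT-2385 replicate 3 or vehicle replicate 1 (adjusted p up to 0.104, 0.0931 and 0.0651, edgeR). Without both vehicle kidneys 1 and 2, all 6 lost theirs, and Synpo also did with upper-quartile scaling (adjusted p = 0.0517, edgeR). Each marker of these lists had counts in at least 1 kidney, and the part of a shift in cell makeup in the fall of the panel was not tested.

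Promoter sequence was read for the genes because HIF-2α binds DNA at a short core motif. RefSeq windows on the GRCm38.p6 build (250 bases before to 50 after a start) were held for 32 of the 36 genes, 47 windows in all; the count files use GRCm39, so these coordinates are not those of the files. The HIF core was searched as ACGTG or GCGTG on both strands and stood in 18 of 47 windows (38.3%), against 43.8% of all 32851 windows in the table. It stood in 10 of the 20 windows of the fallen genes. The HNF4 letters CAAAGT stood in 11 of the 47 windows (23.4%, against 14.4% of all windows) and in 3 of the 20 windows of fallen genes. A match is a description of letters and not a bound site.

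The windows of 5 genes are shown: the sugar carriers that fell, the scaffold Pdzk1, Slc3a1 with the largest log2 fold change of the panel, and Slc34a3, which rose. They lie at chr4:150119094-150119393 on the plus strand (Slc2a5), chr5:33103969-33104268 on the plus strand (Slc5a1), chr3:96829815-96830114 on the plus strand (Pdzk1, the first of 2 windows), chr17:85028097-85028396 on the plus strand (Slc3a1) and chr2:25234185-25234484 on the minus strand (Slc34a3). Capitals mark matches to either searched motif.
Slc2a5: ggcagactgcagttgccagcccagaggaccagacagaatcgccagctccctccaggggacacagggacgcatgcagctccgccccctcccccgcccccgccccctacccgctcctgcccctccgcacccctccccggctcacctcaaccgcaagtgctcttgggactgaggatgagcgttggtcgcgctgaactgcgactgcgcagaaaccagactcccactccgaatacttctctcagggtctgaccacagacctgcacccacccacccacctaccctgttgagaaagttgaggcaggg
Slc5a1: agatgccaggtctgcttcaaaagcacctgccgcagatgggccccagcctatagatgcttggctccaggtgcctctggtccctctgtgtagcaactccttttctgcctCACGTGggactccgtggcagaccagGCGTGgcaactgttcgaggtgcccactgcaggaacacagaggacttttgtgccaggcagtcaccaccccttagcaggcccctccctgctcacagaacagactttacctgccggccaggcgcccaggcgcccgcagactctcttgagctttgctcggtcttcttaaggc
Pdzk1: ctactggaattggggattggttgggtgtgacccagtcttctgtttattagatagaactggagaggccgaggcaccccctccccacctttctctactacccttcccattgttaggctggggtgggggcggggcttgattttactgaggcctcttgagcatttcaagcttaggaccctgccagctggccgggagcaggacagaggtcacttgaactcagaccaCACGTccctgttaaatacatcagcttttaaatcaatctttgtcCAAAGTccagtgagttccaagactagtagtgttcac
Slc3a1: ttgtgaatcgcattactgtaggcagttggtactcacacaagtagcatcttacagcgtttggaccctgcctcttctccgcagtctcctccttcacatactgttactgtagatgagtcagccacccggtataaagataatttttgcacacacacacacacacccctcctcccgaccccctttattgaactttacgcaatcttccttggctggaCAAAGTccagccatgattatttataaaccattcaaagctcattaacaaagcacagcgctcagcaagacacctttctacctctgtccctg
Slc34a3: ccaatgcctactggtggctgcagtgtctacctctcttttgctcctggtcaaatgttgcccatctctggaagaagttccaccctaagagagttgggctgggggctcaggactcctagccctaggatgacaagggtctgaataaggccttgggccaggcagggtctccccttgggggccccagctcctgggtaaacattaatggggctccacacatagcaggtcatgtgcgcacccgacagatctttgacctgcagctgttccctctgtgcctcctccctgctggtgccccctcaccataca
In Slc5a1 the run CACGTG reads as ACGTG on both strands, and with GCGTG it gives 3 HIF core matches. Pdzk1 has 1 HIF core match and 1 HNF4 match, and Slc3a1 has 1 HNF4 match. Neither Slc2a5, which had the smallest p among the 36 genes, nor Slc34a3 holds any of these letters in the window.

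Ovary libraries were used to see which of these transcripts appear outside the kidney. There, CPM are over all assigned pairs without TMM scaling, and the organs were extracted by different methods (a column kit for ovary, Trizol for kidney), so no test was made between them. In all 8 ovaries 13 of the 36 genes exceeded 1 CPM. The highest of these were Anpep, at 34.0 to 41.4 CPM in PT-2385 ovaries and 43.1 to 56.6 CPM in vehicle ovaries, Aqp1, at 25.6 to 33.3 CPM in PT-2385 ovaries and 32.2 to 35.0 CPM in vehicle ovaries, and Gatm, at 19.3 to 23.4 CPM in PT-2385 ovaries and 18.8 to 26.9 CPM in vehicle ovaries. The others were Slc7a7, Slc4a4, Slc9a3, Miox, Lrp2, Cubn, Hnf4a, Mme, Pdzk1 and Dpep1.

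A second set of 13 genes stayed under 0.1% of their vehicle kidney level in 7 of the 8 ovary libraries, which is how the set was picked. In the other library, ovary vehicle replicate 1, these genes stood at 0.242 to 0.433% of the kidney level, with a median of 0.284%. Kap had 1005 counts there (33.9 CPM) and 0 to 24 counts in the other ovaries. Slc34a1 had 324 counts (10.9 CPM) there and 0 to 3 in the others, Pck1 had 255 counts (8.59 CPM) and 3 to 8 in the others, and Napsa had 150 counts (5.05 CPM) and 9 to 18 in the others. The summed level of the 13 genes was 1.80, 1.84, 1.40 and 1.78 CPM in PT-2385 ovaries, against 66.9, 2.45, 1.22 and 1.90 CPM in vehicle ovaries. What brought these transcripts into that library was not tested. Among genes that ovaries also express, Lrp2 stood at 8.32 CPM in ovary vehicle replicate 1 and at 2.28 to 3.60 CPM in the other 7 ovaries.

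**Figure D4:**
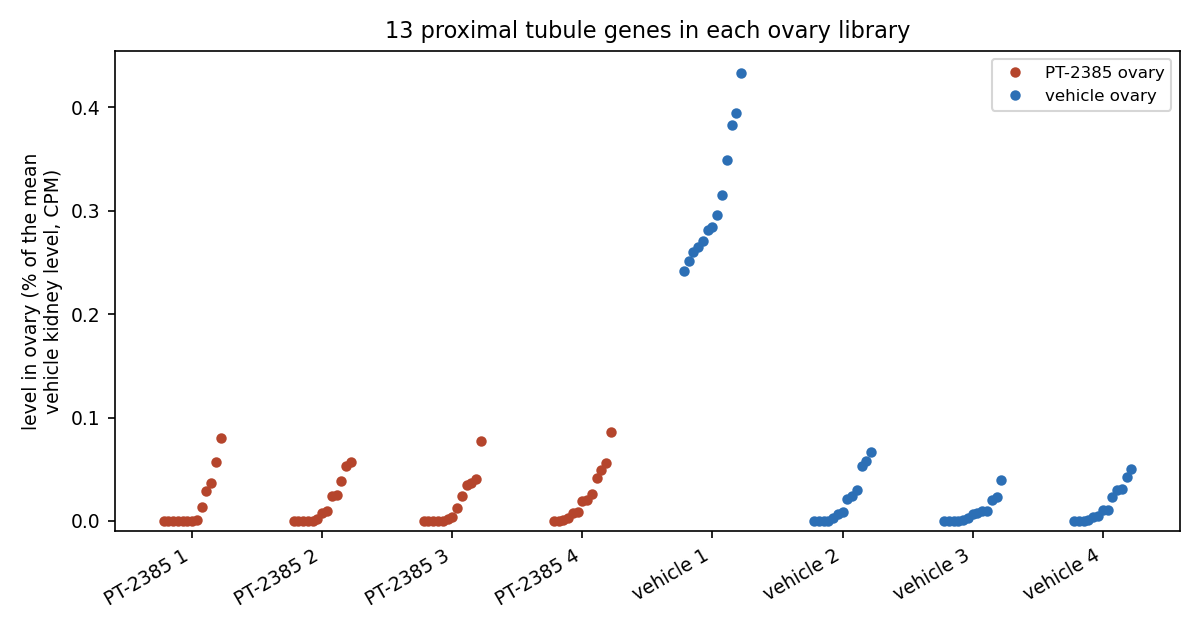
Level of 13 proximal tubule genes in each of the 8 ovary libraries, as a percentage of the mean level in vehicle kidneys; each point is a gene, sorted by level within a library. In ovary vehicle replicate 1 the genes lie between 0.242 and 0.433%, and in the other 7 libraries, by the choice of genes, below 0.1%.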

How the data were processed

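The deposited values are read pair counts per gene, which the authors obtained with featureCounts 2.0.6, summing exon hits of read pairs per gene of GENCODE vM27 (basic), per the file headers. FastQC, STAR and the build GRCm39 are named, per the submitters' processing notes; tool versions are not given in the sources used here. Libraries came from an Illumina stranded polyA kit, per the labels' protocols, but the recorded counting command holds no strand option, so reads of a gene and of its partner on the other strand cannot be told apart; 9 of the 36 genes share any exon base with another gene and 4 share 20% or more. All 16 columns were used.

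Symbols were matched by gene identifier for 52083 of 55359 identifiers (94.1%). Of the read pairs of a library, between 0.681% and 3.14% had an identifier without a symbol, and these stayed in the library size. The 8 kidney libraries were tested with edgeR 4.0.16 (R 4.3.3, limma 3.58.1) by the robust quasi-likelihood test after TMM scaling and filterByExpr at its defaults (count 10, total 15), with group alone in the design (6 residual degrees of freedom). P-values were adjusted by Benjamini-Hochberg over 17763 genes and called under 0.05. SE and 95% intervals of log2 fold changes come from the same fit. The script was tested on simulated data. No pair of replicates agreed within sampling noise. Replicates numbered alike in both groups did not deviate together more than those numbered differently, which cannot exclude a pairing.

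The 36 genes, the further lists and the tests were chosen with earlier results of these data known. All 36 genes are accounted for; values per library are given for the 12 called genes with the smallest p and for leading genes of each role, ranges for the rest, and from each further list at most 6 called genes by smallest p. Some genes that this rule selects are not reported here. Slc34a3 and Slc3a1 were added per library after their values had been seen, as were the gene pairs set in ratios. The fit was repeated with upper-quartile or median-ratio scaling, with TMM over genes outside the proximal tubule lists, unfiltered, with at least 1 CPM required in 4 libraries, in DESeq2 1.42.0 and limma-voom, with the replicate number as a block, over all 16 libraries, and without each library in turn; leaving out both vehicle kidneys 1 and 2 was added after seeing the data. Figures used Python 3.11.15 and matplotlib 3.10.9. The number of libraries limits the precision, and depth ran from 12.7 to 43.3 M read pairs.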

Additional observations from a re-analysis of the deposited data

Results flagged for a closer look

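In each group of 4 libraries, the highest or lowest value was singled out where its gap to the next took more of the group's range than Dixon's 95% critical value allows; chance singles out about 1 in 20 groups. Of 72 kidney groups (36 genes in PT-2385 and vehicle kidneys) 1 was singled out: Slc13a3 had 460 CPM in PT-2385 replicate 1, against 509 to 518 CPM in the other PT-2385 kidneys. Of 12 ovary groups examined (Kap, Slc34a1, Pck1, Napsa, Lrp2 and Miox in PT-2385 and vehicle ovaries), 5 were, all with ovary vehicle replicate 1 as the highest. Kap had 33.9 CPM there, against 0.119 to 0.806 CPM in the other vehicle ovaries, and Slc34a1 had 10.9 CPM, against 0.0339 to 0.101 CPM. Pck1 had 8.59 CPM, against 0.102 to 0.269 CPM, Napsa 5.05 CPM, against 0.417 to 0.542 CPM, and Lrp2 8.32 CPM, against 2.28 to 3.04 CPM. These ovary values enter no kidney comparison except the fit of all 16 libraries.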

How the results depend on the processing

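The fall of the panel kept its direction under every alternative run. The number of fallen genes lay between 14 and 19 with other scalings, filters and tools, at 10 to 17 with 1 kidney left out, and at 4 in the fit of all 16 libraries (Slc2a5, Aqp1, Slc13a2 and Cubn), which estimates the spread over both organs. No called gene changed sign. Lrp2 and Slc3a1, not called in the main comparison, passed with upper-quartile scaling (adjusted p = 0.0361 and 0.0446, edgeR) and in DESeq2 (adjusted p = 0.00436 each). Slc2a5, Aqp1 and Slc13a2 were called in all 18 alternatives. The count over all genes was 982, and became 1761 without a filter on low counts, 286 in the fit of all 16 libraries, 240 to 1370 with 1 kidney left out and 354 without both vehicle kidneys 1 and 2. DESeq2 called 1468. Of the 90 further proximal tubule genes, 7 fell in the fit of all 16 libraries, 9 to 24 with 1 kidney left out and 14 without both vehicle kidneys 1 and 2. Genes of the panel called higher numbered 2 without a filter (Slc34a3 and Gatm), 0 in the fit of all 16 libraries, 0 to 1 with 1 kidney left out and 0 without both vehicle kidneys 1 and 2, where the median log2 fold change was -0.19. The cause of these changes was not tested. With the replicate number as a block, 1274 genes were called and 18 of the panel fell, the 14 and Mme, Slc13a1, Slc17a3 and Slc6a19. Same-numbered libraries had correlations of deviations between -0.064 and 0.052, and differently numbered libraries between -0.068 and 0.069. With 4 libraries per group, these correlations cannot exclude a pairing by number. The summed level of the panel in ovary was 187 CPM, 176 CPM after TMM scaling and 172 to 193 CPM with 1 ovary left out.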
